A study of Homo sapiens with 23 samples.

Results

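The MCF10A line that carries p53 Y220C was set against 9 other mutant p53 lines, gene by gene. The Y220C line is 1 RNA library, 1 of 10 mutant libraries and 1 of 13 RNA libraries in a series of 23 samples. The genes compared were chosen on level alone: a deposited value of 3 or more in at least 3 of the 13 columns, which kept 10508 of 58358 listed genes, 9365 of them protein coding. Y220C was 1 of these columns, so its own value could bring a gene in. Values are log2(TPM + 1), where TPM is a transcript's abundance scaled to the same total in every library, so a value of 3 stands for about 7 TPM and a difference of 1 for a doubling of TPM + 1.

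MCF10A is an established, non-tumorigenic human mammary epithelial cell line. Each mutant line expressed 1 missense form of p53 with a C-terminal V5 tag, delivered by lentivirus: Y220C, or for the comparison G245S, H179R, R175H, Y163C and Y234C, which like Y220C alter the structure of the DNA-binding domain, and R248Q, R248W, R273C and R273H, at residues that touch DNA. The mutant lines kept their endogenous wild-type p53. The control lines were WT (endogenous p53, no tag), WTKD (endogenous p53 reduced with shRNA) and WTOE (V5-tagged wild-type p53, in another vector than the mutants), and all lines were grown untreated in the same medium.

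p53 is a transcription factor that responds to DNA damage and other stress by activating genes of cell cycle arrest, repair and cell death. The residue changed here is a tyrosine of the DNA-binding domain that lies away from the DNA, and its change to cysteine opens a crevice that makes the folded domain less stable. Chemokines such as the CXCL proteins draw neutrophils to injured or infected tissue, and mammary and other epithelial cells make them when signals such as interleukin-1 reach NF-kappaB and AP-1.

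Because each line was sequenced once, the Y220C value has no error of its own, and line, culture and library preparation cannot be told apart. In limma (2-sided, Benjamini-Hochberg over all 10508 genes, with the lone Y220C library taken to vary like the other 9), 0 genes (0.0%) passed an adjusted p of 0.05 with higher values and 0 (0.0%) with lower ones, while 142 (1.35%) stood under 0.05 before adjustment. The lowest adjusted p values were 0.22 for ARHGAP21, 0.298 for DENND6A and for the pseudogene RPL36AP15, and 0.795 for CNKSR1. The results that follow are therefore levels beside the range of the 9 lines, a description and not a set of test calls.

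Y220C lay above every one of the other 9 mutant lines by 1 or more in 85 genes (0.809% of those tested) and below every one by 1 or more in 29 (0.276%). By any amount, it was the highest of the 10 lines in 1272 genes (12.1%) and the lowest in 474 (4.51%). Read the same way, the other lines were set apart in 41 to 1679 genes, and Y220C, at 114, was seventh of the 10. R273H and Y234C had the most (1334 and 1679) and the fewest genes above 0 in the table (12122 and 12409, against 13080 to 15975 in the other lines), and in many genes they set the lower end of the range. Of the 85 genes above, 70 were protein coding, and 79 were also above all 3 control lines. Of the 29 below, 26 were coding and 25 were also below all 3 controls. Quantile normalization of the columns gave 78 above and 76 below, and leaving out R273H and Y234C gave 100 above and 95 below. Over all genes the median difference was 0.25 as deposited, with 61.8% of genes above the mean of the 9 lines, and 0.036 after quantile normalization.

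The chemokine gene CXCL2 and the interleukin-1 receptor gene IL1R1 were among the 15 coding genes with the largest positive differences. CXCL2, which encodes a neutrophil chemokine, was at 7.87 in Y220C, while the other 9 lines ran from 0 in R273H through a median of 3.58 to 5.74 in Y163C. That Y220C was above all 9 lines was fixed by the choice of genes. The control lines WT, WTKD and WTOE were at 3.76, 5.05 and 1.55. The difference from the mean of the 9 was 4.59 (SE 1.52, limma adjusted p = 1).

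CXCL1 is a close relative of CXCL2 on the same chromosome. It was at 10.80 in Y220C against 5.46 to 12.53 in the 9 lines, a difference of 2.86, with R248Q above it and the other 8 below. CXCL8, the interleukin-8 gene, was at 5.34 against 0 to 4.96, above every other mutant line by 0.38. IL1R1, the signalling receptor for interleukin-1, was at 6.17 in Y220C and at 1.86 to 4.23 in the 9 lines, with a median of 2.80 and a difference of 3.15. Its 3 controls, at 2.82 in WT, 3.43 in WTKD and 0 in WTOE, were also below Y220C. The CXCL1, CXCL2 and CXCL3 transcripts are near-identical in parts, so reads may have been split among them when the table was made.

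Of 30 interleukin, chemokine and cytokine genes listed, 12 passed the filter on level. Of these, 10 were above the mean of the 9 lines in Y220C and 3 were the highest of the 10 lines, with a median difference of 0.93 against 0.25 over all genes tested. Over all genes tested, 61.8% were above that mean and 12.1% were highest in Y220C. After centring within 20 bins of transcript GC content, the median of the list was 0.49, against 0.045 over all genes. The deposited list median, taken in turn for each of the other 9 lines, had a standard deviation of 0.85. By 1 or more, 2 of the 12 were above all 9 lines, CXCL2 and IL1R1. The 2 of the 12 below the mean of the 9 lines were IL1B, at 1.98 against 0 to 4.52, and CSF1, at 3.48 against 3.25 to 6.20. CCL20, an epithelial chemokine, was at 6.64, inside the range of 1.79 to 7.08.

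The 18 list members that failed the filter had too few lines above the minimum, so no test was run on them, and the following were picked out after their values were seen. CCL2, which attracts monocytes, was at 5.59 in Y220C and listed at 0 in the other 12 libraries. CXCL3 was at 5.07 in Y220C, at 1.06 to 2.16 in H179R, R248Q, R248W and Y163C, and at 0 elsewhere. IL6 was at 4.79 in Y220C, at 2.28 in R175H, 2.83 in Y163C, 3.38 in WTKD and 0.91 in WTOE, and at 0 in the other 8 libraries. CXCL5 was at 0.90 in Y220C and 0 in the other 9 mutant lines. Of the 18, 4 were highest in Y220C, another 2 (LIF and IL1R2) were above 0 there without being highest, and 12 were at 0 in Y220C. No share over all genes that failed the filter was taken, so the 4 are a description and no result about the list.

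**Figure D1:**
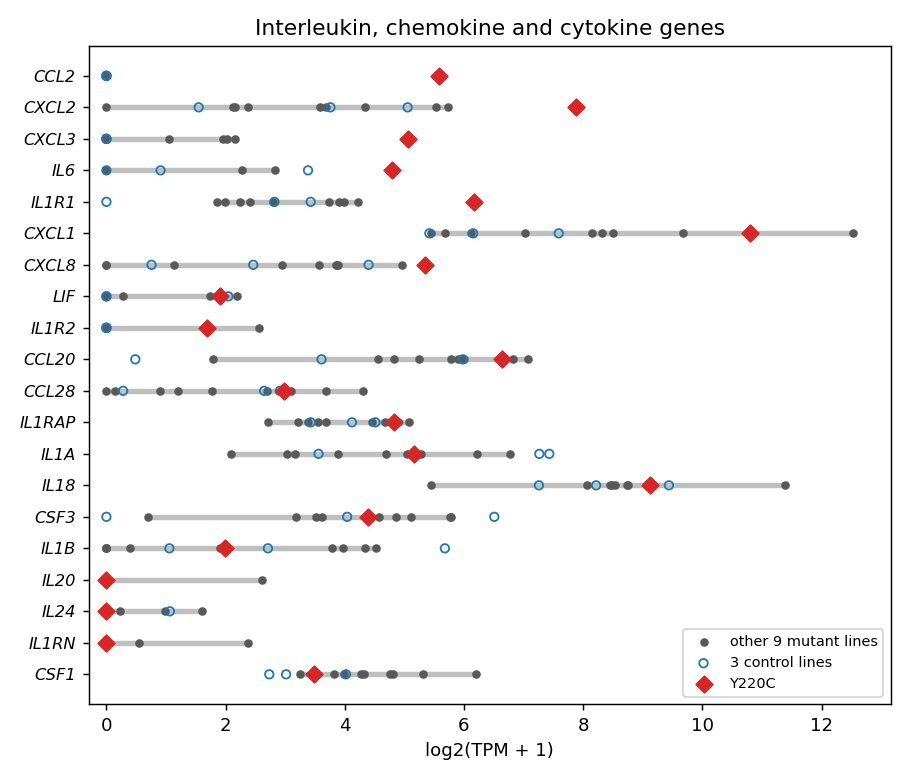
Values of interleukin, chemokine and cytokine genes in log2(TPM + 1), for genes above 1 in at least 1 library, with Y220C as a red diamond, the other 9 mutant lines as grey points on a bar from lowest to highest, and the 3 control lines as blue rings. Y220C stands to the right of all 9 lines for CCL2, CXCL2, CXCL3, IL6, IL1R1 and CXCL8, and inside the range for most of the others.

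The bases just before the transcription start of these genes are shown for 5 of the chemokine and interleukin genes, picked after their values were seen, all of which held a match to the motif searched. IL1R1 held none in this window, and CCL2 is not shown. The sequences are the 100 bases before the RefSeq start site (GRCh38.p14), 5′ to 3′ on the gene's own strand, and capitals mark matches to GGANTTTCC, a form of the NF-kappaB site, searched on both strands. CXCL1 (plus strand) is chr4:73869293-73869392, CXCL2 (minus) chr4:74099196-74099295, CXCL3 (minus) chr4:74038690-74038789, CXCL8 (plus) chr4:73740469-73740568 and IL6 (plus) chr7:22727100-22727199.
CXCL1: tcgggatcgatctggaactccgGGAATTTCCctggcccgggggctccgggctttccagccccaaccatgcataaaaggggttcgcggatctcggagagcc
CXCL2: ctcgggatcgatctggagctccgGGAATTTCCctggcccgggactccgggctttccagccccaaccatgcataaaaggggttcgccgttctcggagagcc
CXCL3: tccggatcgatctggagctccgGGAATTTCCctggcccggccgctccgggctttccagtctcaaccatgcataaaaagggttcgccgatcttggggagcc
CXCL8: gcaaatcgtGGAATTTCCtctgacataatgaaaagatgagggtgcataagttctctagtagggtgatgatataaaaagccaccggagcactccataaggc
IL6: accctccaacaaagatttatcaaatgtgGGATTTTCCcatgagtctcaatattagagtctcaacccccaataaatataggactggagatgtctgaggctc

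The match began 78 bases before the start in CXCL1 and CXCL3, 77 in CXCL2, 91 in CXCL8 and 72 in IL6. Such a match stood in the same window of 228 of 35116 promoters in the reference table (0.649%). Among the genes set apart above and found in that table, 3 of 63 held it (4.76%): CXCL2, FCHSD2 and PHTF2. Among those set apart below, 0 of 18 held it, and 81 of 7663 genes tested did (1.06%). The promoters were chosen after the values were seen, and CXCL2 is both shown above and counted among the 3. The shares are therefore no test, and a match is a description of the sequence, not of binding.

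S100A8 and S100A9 encode the 2 chains of calprotectin, a calcium-binding protein of neutrophils and stressed epithelium. S100A8 was at 6.20 in Y220C, at 3.36 to 5.11 in R175H, R248Q, R273C and Y163C, and at 0 in the other 5 mutant lines. S100A9 was at 6.40, just above R175H at 6.24, with 5 of the 9 lines at 0. Over the 12 S100 genes tested, 8 (66.7%) were above the mean of the 9 lines, near the 61.8% of all genes, and the median difference was 0.54. S100A8 was the 1 set apart by 1 or more.

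ATF3, a transcription factor made early in stress responses, was at 4.95 in Y220C against 0 to 2.80 in the 9 lines, 4 of which were at 0. WTOE, at 5.43, was above Y220C. Among 15 immediate early and AP-1 genes, 12 were above the mean of the 9 lines, with a median difference of 0.73, and 4 were the highest of the 10 lines, beside 61.8% and 12.1% of all genes. ATF3 was the 1 set apart by 1 or more. It reached 3 only in Y220C, WTKD (3.21) and WTOE, so it passed the filter only with its Y220C value. Its place in these counts is therefore no support. ZFP36, which destabilises cytokine mRNAs, was at 7.64 against 4.57 to 7.05, FOS at 4.24 against 0.20 to 4.16, and JUN at 3.41, inside a range of 0.18 to 3.50. SOD2, the mitochondrial superoxide dismutase, was at 6.45 against 2.12 to 5.45, and ZC3H12A, an RNase that degrades IL6 and other cytokine mRNAs, at 5.07 against 0 to 3.99. These last 2 genes were picked out after their values were seen.

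DENND6A and ARHGAP21 had the lowest adjusted p among coding genes with higher values. DENND6A, an exchange factor for a Rab GTPase of recycling endosomes (chr3:57625454-57693077, minus strand, GRCh38), was at 9.49 in Y220C, or 720.2 TPM. The highest of the 9 lines, Y163C, was at 5.58 (47.0 TPM), the median at 4.78 and the lowest, Y234C, at 2.43. The difference was 4.72 (SE 0.93), and Y220C was also above the controls at 3.26 to 5.56. ARHGAP21, a GTPase-activating protein encoded on chromosome 10, was at 9.25 (607.8 TPM) against 4.31 to 5.81, a tight range, with a difference of 3.97 (SE 0.69). Its controls lay between 5.93 and 6.56. ARHGAP21 had an adjusted p under 0.05 in 8 of 23 fits that differed in filter, scaling or lines included (range 0.000683 to 0.804), and DENND6A in 5 (range 0.00559 to 1).

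The other coding genes with the largest positive differences were of mixed function. FCHSD2, a membrane-bending endocytosis protein, was at 7.18 against 0.10 to 4.19. C1orf116 was at 8.07 against 0 to 4.96, and the lowest line was R273H. FGFBP1, a secreted carrier of fibroblast growth factors, was at 8.67 against 0 to 7.39.

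KCNS3, a modulatory subunit of voltage-gated potassium channels, was at 6.39 against 0 to 4.35. GRAMD2B was at 7.51 against 2.79 to 4.81, PITPNM3 at 5.68 against 0 to 4.38 and CGRRF1 at 5.64 against 0.62 to 3.65. PITPNM3, like ATF3, passed the filter on level only with its Y220C value. CDC14A, a dual-specificity phosphatase, was at 5.68 against 0.56 to 3.47, and SLCO2A1, the prostaglandin transporter, at 4.72 against 0 to 3.49. For all 15 leading genes Y220C was above all 9 lines, which the choice of genes fixed, and for 14 of the 15 it was also above the 3 controls, ATF3 being the exception. Across all 85 genes, 27 had at least 1 of the 9 lines at 0.

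Another 2 list members were outside the range by 1 or more. HLA-F, a non-classical MHC class I gene, was at 5.01 against 0 to 3.65, with reads that similar HLA genes could share. TGFBR3, the co-receptor betaglycan, was at 5.73 against 1.51 to 4.27, a gap of 1.46 that was 0.93 after centring within GC bins.

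**Figure D2:**
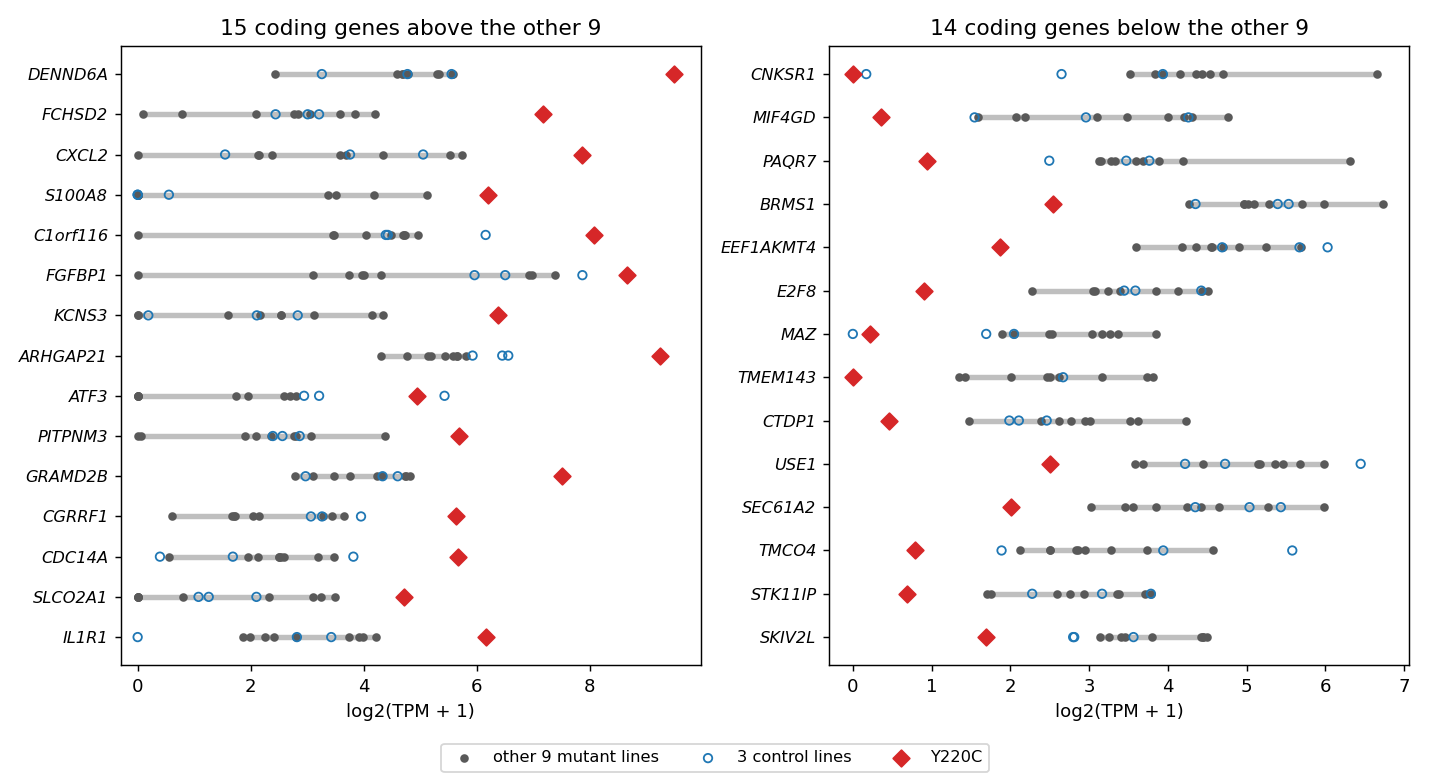
Values in log2(TPM + 1) of the 15 coding genes with the largest positive difference and of 14 of the 15 with the largest negative difference among genes set apart, with Y220C as a red diamond, the 9 other mutant lines as grey points on a bar from lowest to highest, and the 3 controls as blue rings. DENND6A and ARHGAP21 stand far to the right of narrow ranges, and CNKSR1 is at 0 in Y220C while all 9 lines are above 3.

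The genes below the range were led by CNKSR1. It encodes a scaffold of Ras signalling, lies on chromosome 1 and was listed at 0 in Y220C, while the 9 lines ran from 3.51 in R175H through a median of 4.35 to 6.66 in Y234C. Its difference was -4.46 (SE 0.99), but WTOE, at 0.17, was nearly as low. Genes listed at 0 have no depth beside them in the table, so how far below the other lines they were is not known. With a pseudocount of 5 in place of 1, only 7 of the 29 genes below stayed set apart, against 58 of the 85 above.

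MIF4GD, a partner of the protein that binds histone mRNA, was at 0.36 against 1.59 to 4.76. PAQR7, a membrane progestin receptor, was at 0.95 against 3.12 to 6.32. BRMS1, a metastasis suppressor that works in histone deacetylase complexes, was at 2.54 against 4.27 to 6.73. E2F8, an atypical E2F that represses transcription, was at 0.90 against 2.28 to 4.51.

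MAZ, a zinc finger transcription factor, was at 0.22 against 1.90 to 3.84, with WT at 0. CTDP1, a phosphatase of RNA polymerase II, was at 0.46 against 1.48 to 4.23. USE1, a SNARE of traffic to the endoplasmic reticulum, was at 2.51 against 3.58 to 5.98. SKIV2L, a helicase of the RNA exosome, was at 1.69 against 3.14 to 4.49. EEF1AKMT4, TMEM143, SEC61A2, TMCO4 and STK11IP were also among the 15, with Y220C between 0 and 2.01.

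Genes next to the leading ones above the range were read in the same way. Among the 60 nearest tested neighbours of those 15 genes, 0 were above all 9 lines by 1 or more. The share over all genes tested was 0.809%, so a count of 0 among 60 is no result about the neighbours.

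The difference between Y220C and the 9 lines varied with the GC content of the transcripts. Over 10460 genes (99.54% of those tested) Spearman's correlation of the difference with GC was -0.419, given as a description, since genes of 1 library are not independent. The median difference was 0.71 over the 2092 genes with the lowest GC and -0.27 over the 2092 with the highest. Genes set apart above had a median GC of 43.0% and those below 58.3%, against 46.6% over all genes. Transcript length showed no such gradient (correlation 0.023).

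The gradient was not particular to Y220C, since Y163C had a correlation of -0.421, H179R -0.348 and Y234C 0.441. When each column was centred within 20 bins of GC, 71 genes were above and 25 below, and these held 51 of the 85 and 18 of the 29. All 15 leading genes above remained set apart, and 11 of the 15 below, while MIF4GD, TMEM143, USE1 and STK11IP were then less than 1 below the lowest line.

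**Figure D3:**
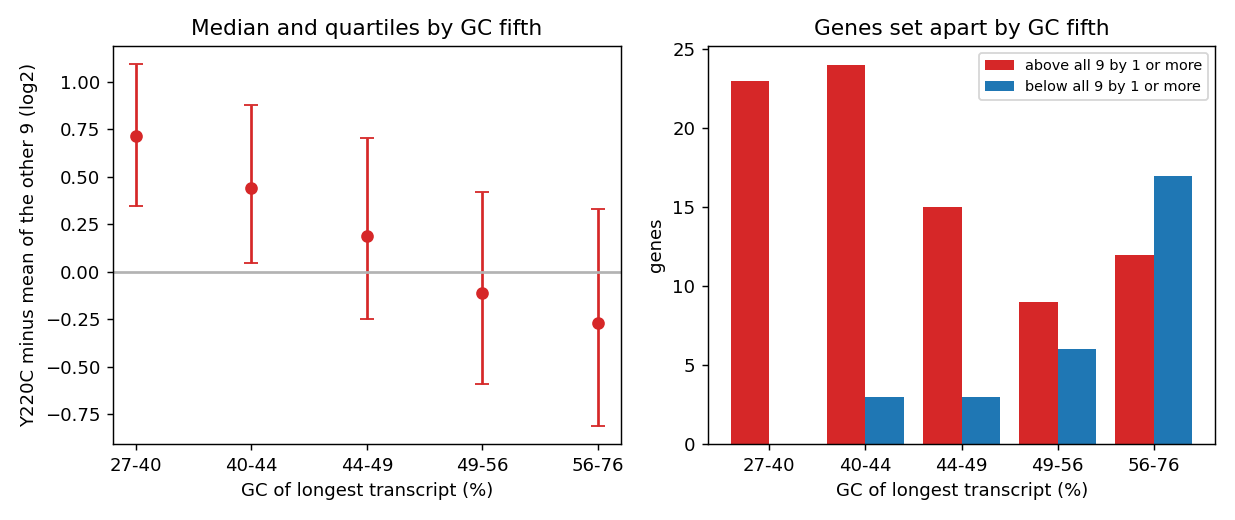
Left, the median difference between Y220C and the mean of the other 9 lines (log2) with quartiles as bars, in 5 equal bins of transcript GC content, and right, the number of genes above and below all 9 lines by 1 or more in each bin. The median goes from 0.71 to -0.27, and 17 of the 29 genes below lie in the bin with the highest GC.

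Genes that wild-type p53 activates were set beside all genes tested. Of 30 tested, 20 (66.7%) were above the mean of the 9 lines, against 61.8% of all genes. Their median difference was 0.49 against 0.25, or 0.32 against 0.045 within GC bins. Y220C was the highest of the 10 lines in 5 and the lowest in 2, beside 12.1% and 4.51% of all genes. By 1 or more, 0 were set apart, which beside 0.809% above and 0.276% below over all genes is no result about the list. CDKN1A, the p21 inhibitor of cyclin-dependent kinases, was at 6.87 against 5.18 to 8.02, and MDM2, the ligase that degrades p53, at 6.10 against 4.34 to 6.43. The highest of the 10 lines was Y220C for CCNG1 (9.97 against up to 9.71), PERP (8.96 against up to 8.58), RRM2B (6.90 against up to 6.46), RPS27L (6.84 against up to 6.56) and BTG2 (3.66 against up to 3.41), and the lowest for DDB2 (4.24) and FDXR (2.06). BTG2, RPS27L, DDB2 and FDXR were named after their values were seen.

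**Figure D4:**
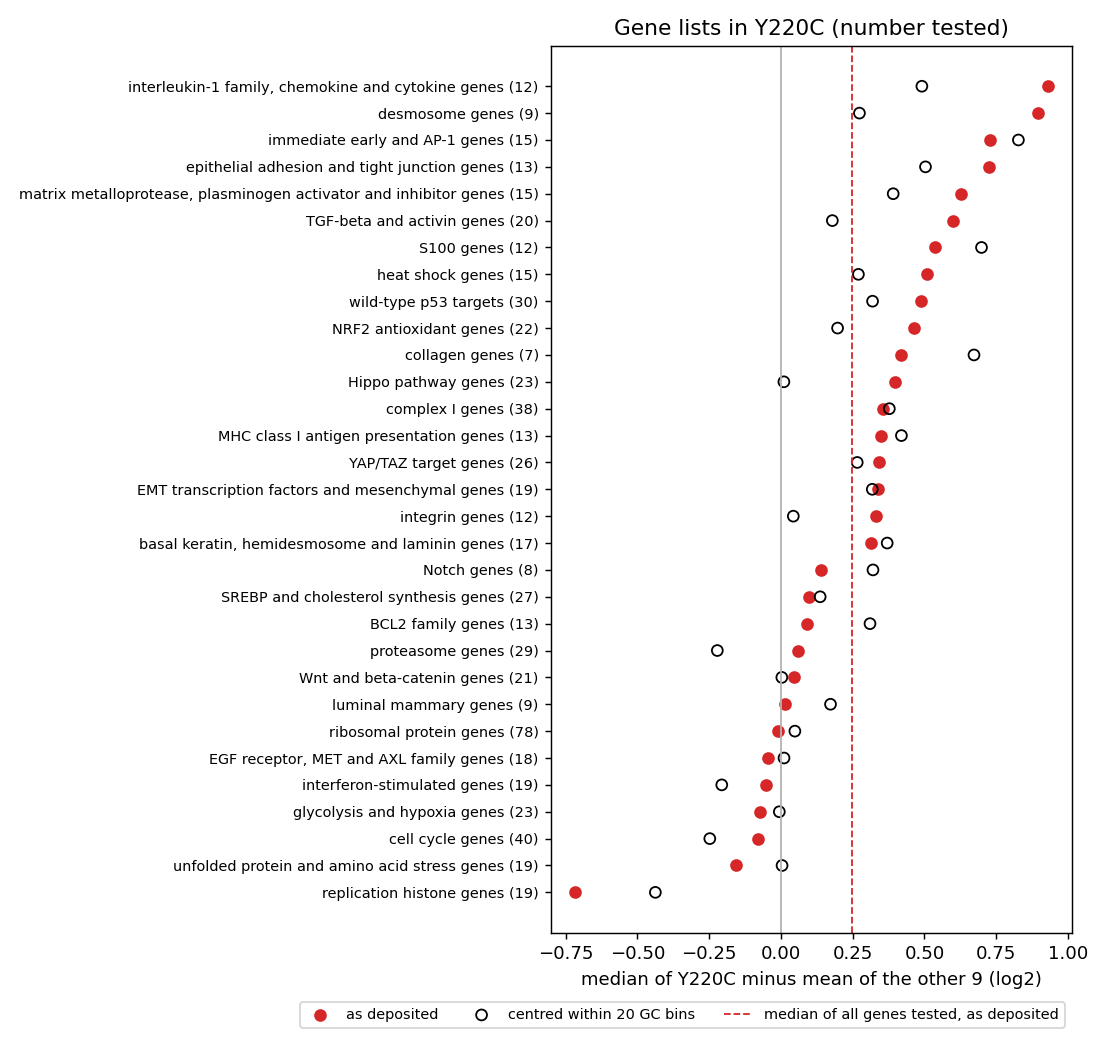
Median difference between Y220C and the mean of the other 9 lines (log2) for 31 gene lists with at least 5 genes tested, as deposited (red) and after centring within 20 bins of GC (open), with the median of all genes tested, as deposited, as a dashed line. Within GC bins the median of all genes was 0.045. Cytokine and desmosome genes are at the top (0.93 and 0.90) and replication histone genes at the bottom (-0.72). Taken in turn for each of the other 9 lines, these list medians had a standard deviation of 0.85, 0.66 and 0.59.

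Desmosome genes, which join epithelial cells, were above the mean of the 9 lines in 8 of 9 cases (88.9%, beside 61.8% of all genes). Their median difference was 0.90, beside 0.25 over all genes. DSC3 was at 5.61 against 2.82 to 5.54. None was set apart by 1 or more, beside 0.809% above and 0.276% below over all genes. After centring within GC bins the median was 0.27, against 0.045 over all genes. Epithelial adhesion and tight junction genes had 9 of 13 above the mean (69.2%, near the share of all genes) and a median of 0.72. Taken in turn for each of the other 9 lines, the median had a standard deviation of 0.66 for the desmosome list and 0.99 for the adhesion list.

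Among the 15 protease, plasminogen activator and inhibitor genes, 11 (73.3%) were above the mean, beside 61.8% of all genes. Their median was 0.63, or 0.39 within GC bins, beside 0.25 and 0.045 over all genes. MMP28 was at 3.88 against 0 to 3.54 and MMP14, a membrane-bound collagenase, at 5.40 against 2.72 to 5.51. TGF-beta and activin genes had 15 of 20 above and a median of 0.60, or 0.18 within GC bins. Among them were ID1, a target of BMP signals, at 8.41 against 5.96 to 7.55 and INHBA, the activin A subunit, at 2.63 against 0 to 2.09, though below the controls at 3.05 to 5.35. The heat shock list had 11 of 15 above (73.3%) and a median of 0.51, or 0.27 within GC bins, with HSPH1 first by difference (1.77).

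Replication histone genes were the lowest list, with 5 of 19 (26.3%) above the mean, beside 61.8% of all genes. Their median was -0.72, or -0.44 within GC bins (18 genes), beside 0.25 and 0.045 over all genes. HIST1H2BJ was at 1.91, near the lowest of the 9 lines, whose median was 4.02 and highest 6.24, and HIST1H2BC at 8.41, just below the lowest of the 9 at 8.51. Most of these transcripts end in a stem-loop and have no poly(A) tail. Cell cycle genes had 18 of 40 above (45.0%) and a median of -0.08, or -0.25 within GC bins. Y220C was the highest line in 4 of them, CDK1 and TTK included, and the lowest in 5, beside 12.1% and 4.51% of all genes.

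Interferon-stimulated genes (median -0.05, or -0.21 within GC bins), ribosomal protein genes (-0.01) and the EGF receptor, MET and AXL family (-0.05) lay below the median of all genes. That median was 0.25, or 0.045 within GC bins, where of these the ribosomal list (0.049) was above it. Squamous differentiation genes had 4 of 28 tested and 1 of the 4 above the mean. The basal keratin list had 12 of 17 above (70.6%) and a median of 0.31. In it, KRT14 was at 6.23 against 0 to 8.23, and TP63, the master regulator of basal epithelium, at 4.65 against 0 to 4.87.

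Epithelial markers were present. All 8 mammary epithelial markers were above 0 in Y220C, with a summed level of 2129 TPM against 1121 to 4457 in the 9 lines. The 8 fibroblast markers summed to 48.0 TPM against 3.03 to 61.6, of which DCN (5.59 against 1.18 to 5.56 in the 9 lines) made up most, while COL1A1, COL1A2, COL3A1 and PDGFRA were at 0. The 7 blood cell markers summed to 7.42 TPM with CD14 (3.07) above 0 and the other 6 at 0, among them PTPRC, the pan-leukocyte marker. The endothelial markers summed to 1.25 TPM.

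Y220C was most like Y163C, another tyrosine-to-cysteine mutant. Pearson's r over the genes tested was 0.881 with Y163C, 0.845 with WTKD, 0.843 with H179R and 0.837 with R273C, and lowest with R273H (0.707) and Y234C (0.696). These are descriptions over genes, with no test. Y163C was also nearest by Spearman's correlation, by Euclidean distance and after centring within GC bins. The 2 lines shared their GC gradient and the 2 highest of the mutant gene detection counts (15602 in Y220C and 15975 in Y163C, with R273C at 15479), and what part these had in the likeness was not tested.

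The other two tyrosine-to-cysteine lines stood at the opposite ends of this order. The median of Y220C minus the other line was -0.07 for Y163C and 1.14 for Y234C. Against Y234C, 2992 genes were higher in Y220C by 2 or more and 513 were lower. Y163C was the next highest line in 20 of the 85 genes above, and Y234C in 2. CXCL2 was at 7.87, 5.74 and 2.13 in Y220C, Y163C and Y234C, IL1R1 at 6.17, 2.41 and 2.25, and ARHGAP21 at 9.25, 5.81 and 4.31. In R273C, a contact mutant with a like number of genes detected, the 3 genes were at 3.58, 2.80 and 5.44.

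**Figure D5:**
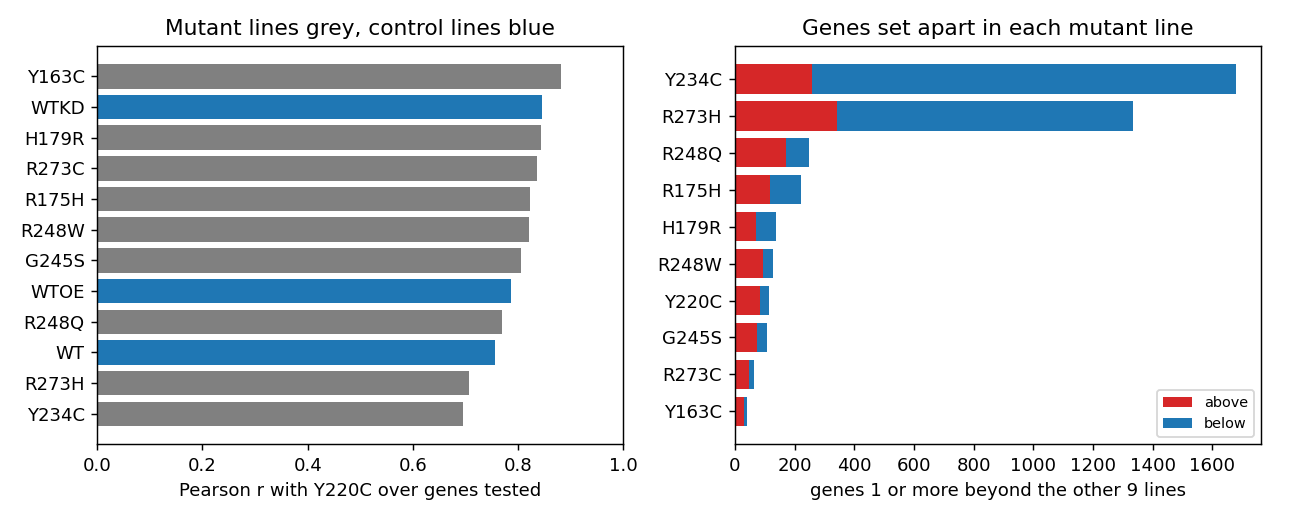
Left, Pearson's r with Y220C over the 10508 genes tested for each other line, mutants in grey and controls in blue, and right, the number of genes 1 or more above or below the other 9 mutant lines, for each mutant line in turn. Y163C has the highest r, at 0.881, and Y220C, with 114 genes, is seventh of 10 by genes set apart.

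Binding of V5-tagged p53 Y220C was asked for at the promoters of the genes set apart, 2500 bases before to 100 after each start. The Y220C peak list held 1294 distinct regions and touched the promoters of 29 of the 10508 genes tested (0.276%). Of the 85 genes above 0 had such a peak, and of the 29 below 0, which beside so small a share of all genes is no result about either group. The WTOE list, which is longer, touched 804 tested genes (7.65%), with 6 of the 85 above (7.06%) and 2 of the 29 below (6.9%). Among the 6 were ZC3H12A, C17orf75, C5orf24, PRKAR1B and the pseudogene PPIAP35.

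Of the 29 genes with a Y220C promoter peak, 2 were above the range of the other 9 lines and 1 was below, beside 12.1% and 4.51% of all genes. Their median difference was 0.04, below the 0.25 of all genes. FCHO2, a clathrin-coat initiator, was at 5.10 against 2.49 to 4.84, EEF1D, a subunit of elongation factor 1, at 4.86 against 3.18 to 4.40, and TBC1D9B at 5.43 against 5.53 to 6.97. These 3 genes were outside the range by 0.46 at most and were named after their values were seen.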

How the data were processed

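RNA of 13 MCF10A lines, 1 library each, was amplified from total RNA with a single-primer cDNA kit and read on an Illumina NextSeq. According to the methods, the authors aligned reads with STAR to GRCh38 (Ensembl annotation), dropped mitochondrial RNA and deposited log2(TPM + 1) values (log2 scale, pseudocount 1), each column summing to 1000000 TPM. The deposited table holds no read counts, so depth is unknown and no count test was possible. The paper reports high duplication rates, with most RNA reads being duplicates. It also reports that mitochondrial RNA took up a large share of the reads, which differed between libraries. Both limit how far a value from a lone library can be read, above all for genes listed without signal. Their effect on the values given here was not tested. Amplification before library preparation can change the level of transcripts by sequence. For the V5 ChIP, the submitters' notes name Bowtie2 2.1.0, SAMtools 1.7 and MACS2 2.1.2.20181017; the deposited peak lists give signal (fold over input), score, −log10 p and −log10 q values per library, called against input.

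Y220C was compared with the other 9 mutant lines with limma 3.58.1 (R 4.3.3, trended empirical Bayes). The fit was also run on simulated data that gave Y220C the spread of the 9, so that run cannot show whether this spread holds. Because the Y220C library is alone, its spread was taken from the 9. A gene was called set apart where Y220C was 1 or more beyond the lowest or highest of the 9. Genes named were the 15 largest differences each way among coding genes set apart, list members set apart, CDKN1A and MDM2, and the leading members of each list; exceptions are stated, and some items are not reported here. Gene positions, GC content and transcript length (longest transcript) came from GENCODE, matched by gene ID for 57717 of 58358 IDs (98.9%), and promoter sequences from RefSeq by symbol. The genes, lists and thresholds were chosen with earlier results of these data known. Alternatives tried are in the closing section. The WTOE and Y220C peak lists were used; the other peak lists and inputs were not used here. No line had a second library, so no p value measures the spread between cultures of 1 line.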

Additional observations from a re-analysis of the deposited data

Results flagged for a closer look

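Over the named genes and 2 library measures, 61 items in all were searched among the 9 mutant lines other than Y220C. The search was for a library far from the rest of the 9, and chance alone flags about 1 in 20. Y220C was left out, so its own value may lie near a flagged one. Y234C stood apart for DENND6A, at 2.43, and SOD2, at 2.12, below the rest of the 9, and for CNKSR1 (6.66), PAQR7 (6.32) and MMP14 (5.51) above them. R273H stood apart for C1orf116, at 0, and R248Q for CCL20, at 1.79.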

How the results depend on the processing

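No paired analysis was possible because each line has 1 library. The limma count of 0 stayed 0 with control lines added, with a robust or untrended fit, with gene detection as covariate and with a pseudocount of 0.1. A Z score over genes, the kind of score the paper used for its calls, takes genes as replicates and is not limma. It gave 26. The limma count was 1 after median centring, 1 within GC bins (an alternative added after seeing the data) and 1 with values of 1 or more in 3 columns. It was 2 after quantile normalization, 2 without R273H and Y234C, 3 with a pseudocount of 5, 189 with values of 3 or more in 1 column and 1009 with no filter. Of the 188 and 1006 higher genes in these last, 128 and 754 were at 0 in all 9 lines. Leaving out 1 line gave 0 to 2, the 2 without Y234C, ARHGAP21 and DENND6A (limma adjusted p = 0.0216 each).

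The 114 genes set apart became 65 with a pseudocount of 5, which kept 58 of the 85 above and 7 of the 29 below. The count was 195 without R273H and Y234C, 229 with values of 1 or more in 3 columns and 363 with 3 or more in 1 column. It was 807 with no filter, 1746 at a gap of 0, 17 at a gap of 2, and 127 to 151 when 1 line was left out. Within GC bins the difference of CDKN1A turned from -0.20 to 0.15 and that of MDM2 from 0.50 to -0.048, and 7 of 31 list medians changed side of the all-gene median. The cause of these shifts was not tested. Genes set apart with a Y220C promoter peak stayed at 0 with a stricter q, a summit inside the window, or a shorter window that is equal on both sides.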

Other observations

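Noncoding and pseudogene entries were also set apart. RPL36AP15, a processed pseudogene of a ribosomal protein gene on chromosome 2, was at 9.62 in Y220C against 0 to 4.63 in the other 9 mutant lines and 5.09 in WT, and its reads may be shared with copies of the same gene. The RNA entry RNY1P12 was at 3.75 in Y220C and 0 in the other 9, while WTKD and WTOE, at 5.09 and 6.64, were above Y220C. This entry passed the filter only with its Y220C value.

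Beyond the filter, 381 genes had a value of 3 or more in Y220C with fewer than 3 such columns, 104 of them protein coding, and 87 were at 0 in the other 12 libraries, 4 of these coding. GPC4, a cell-surface heparan sulfate proteoglycan, was at 5.51 in Y220C against 0 to 3.29 in the other mutant lines. SPINK9, a serine protease inhibitor of skin, was at 5.16, with 2.57 in WTKD and 0 in the rest, and CPSF4L at 5.10 with 0 in the rest. CPEB2, which controls translation of mRNAs, was at 4.85 against 0 to 2.74. These genes were ranked by their Y220C value, so their height there is not a test.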
